A study of Mus musculus with 9 samples.

Results

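The CHD genes Chd1 to Chd9 encode the chromodomain helicase DNA-binding proteins, and their TWIST1 chromatin immunoprecipitation (ChIP-seq) peaks are described here. The members were the 9 genes with these symbols among 21887 protein-coding genes of mouse (GRCm38.p6, whose main chromosomes have the coordinates of mm10). A peak belonged to a gene when its summit lay inside the gene body or, between genes, when that gene was the nearest within 100 kb. The overexpressing cells (OE) were mouse embryonic stem cells of the A2loxcre line, null for endogenous Twist1 (Twist1-/-), that carried Twist1 with a Flag tag under doxycycline control. The KO cells lacked both endogenous Twist1 and this cassette, and received the same treatment. Embryoid bodies were grown for 3 days and exposed to doxycycline for 16 h, and the labelled strain is C57BL/6. All TWIST1 in the OE cells thus came from the induced cassette, and no sample holds TWIST1 at its endogenous level. Peak lists of 4 OE ChIP, 2 KO ChIP and 1 KO input library were used, while the inputs of the OE cells (2 samples) were not analysed here.

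CHD proteins are SNF2-type ATPases that slide, space or evict nucleosomes and carry paired chromodomains that can read histone tails. CHD1 and CHD2 act at transcribed genes, and CHD1 helps to keep the chromatin of embryonic stem cells open. CHD3, CHD4 and CHD5 are the motor subunits of the NuRD corepressor complex, with histone deacetylases as partners. CHD6 to CHD9 form the remaining subfamily. CHD7 is required in neural crest and is mutated in CHARGE syndrome, CHD8 is a major autism gene, and both proteins have been described as partners of TWIST1 in neural crest progenitors.

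The lists held 22308, 106750, 87385 and 14078 peaks on the main chromosomes in OE libraries 1 to 4, 94 and 62 in KO libraries 2 and 3, and 1642 in the KO input. In place of read totals, not given in the sources used here, the background at the peaks was recovered from each fold and p-value. Its most frequent value was 1.00 fragments for OE library 1 and 1.20 for OE library 4, against 5.38 and 5.29 for OE libraries 2 and 3. KO libraries 2 and 3 stood at 4.73 and 5.09, with 6.46 for the KO input. By this measure OE libraries 1 and 4 stood apart as shallow, and results are given for every library. Fold enrichments are the authors' values for single peaks, read here as fragments plus 1 over background plus 1. They describe a peak within its own list, and its percentile is the share of that list with an equal or lower fold.

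Every CHD gene had TWIST1 peaks in the deeper OE libraries and none had a peak in either KO ChIP library. OE libraries 1 to 4 held 31, 147, 119 and 21 CHD peaks (79.5 ± 63.0, SD, n = 4), against 0 in both KO libraries. All 4 OE libraries thus lay above both KO libraries. The difference of mean log2(number + 1) was 5.89, with p = 0.0667 by a two-sided exact permutation test over 15 splits, the smallest p that this design allows. It takes this value whenever every OE count lies above both KO counts, so it does not measure the size or spread of the difference. The labels do not say that the libraries came from separately derived lines, so the p speaks for these libraries only. As a share of its own list, each OE library gave nearly the same value to the CHD genes, from 0.136% in library 3 to 0.149% in library 4 (0.141% ± 0.00589, SD, n = 4). At that share, lists as short as those of KO libraries 2 and 3 would hold 0.132 and 0.0871 CHD peaks. Their counts of 0 allow shares of up to 3.19% and 4.84% (3 counts of the total, counting error only). The KO lists therefore cannot show whether the CHD share differed, only that they held few peaks anywhere. The KO input held 3 CHD peaks, 1 each at Chd2, Chd6 and Chd9, a share of 0.183% (95% exact binomial interval 0.0377% to 0.533%). That share, from a library without TWIST1 ChIP, was no lower than those of the OE libraries, whose value lay within its interval. The share of peaks at CHD genes thus did not set the OE lists apart from the input.

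**Figure D1:**
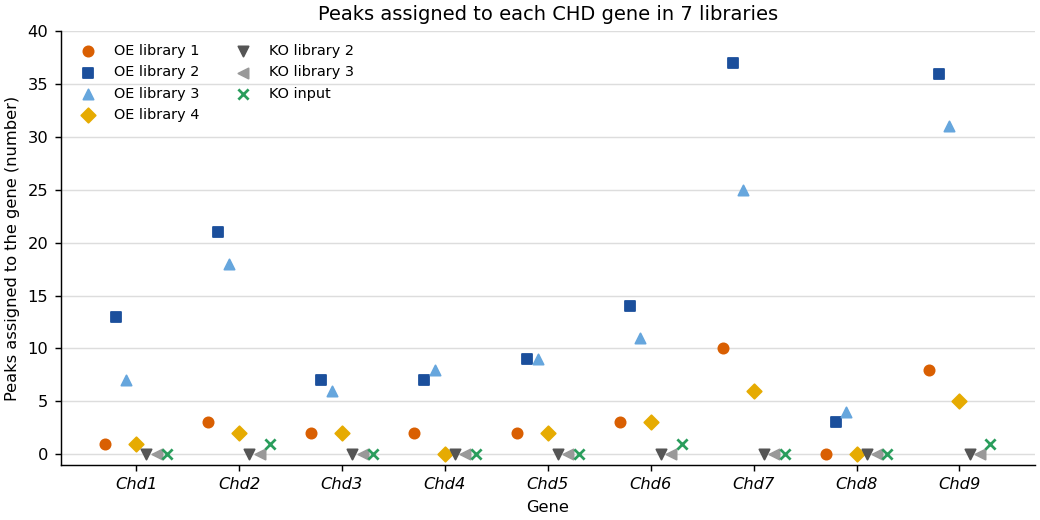
Number of peaks (vertical axis) assigned to each CHD gene (horizontal axis) in the 7 libraries, 1 point per library. Chd7 and Chd9 carried the most peaks in each OE library, up to 37 and 36 in OE library 2, and all points of the KO ChIP libraries lie at 0.

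Chd7 and Chd9 led in every OE library. Chd7 had 10, 37, 25 and 6 peaks in OE libraries 1 to 4, and Chd9 had 8, 36, 31 and 5. These are also the longest members, with gene bodies of 178 kb and 226 kb. Chd2 followed with 3, 21, 18 and 2 peaks and Chd6 with 3, 14, 11 and 3. Chd8 had 0, 3, 4 and 0, and no member had fewer in any OE library. OE library 1 had a peak at 8 of the 9 members, where 47.3% of all protein-coding genes had one. The figures were 9 members against 80.6% for library 2, 9 against 77.5% for library 3 and 7 against 37.4% for library 4. In the KO input it was 3 against 5.29%, and in the KO ChIP libraries 0 against 0.210% and 0.0959%. Within the OE lists, 51.6% to 57.1% of CHD peaks lay inside the gene bodies, with no share for all genes set beside this.

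Merging OE peaks that shared at least 1 bp gave 153 CHD regions, of which 80 (52.3%) came from OE libraries 2 and 3 together and no other. Over the genome that class made up 45.3% of 119237 regions. Another 45 CHD regions (29.4%, against 37.2% over the genome) were seen in a single library. A further 1 (0.654%, against 0.603%) came from libraries 1 and 4, and 9 (5.88%, against 5.94%) from libraries 1, 2 and 3. Regions of all 4 OE libraries numbered 18 (11.8%, against 9.19% over the genome). Of these, 3 overlapped a KO input peak and none a KO ChIP peak, and the other 15 are called reproducible. Over the genome 568 of 10952 such regions overlapped a KO input peak and 19 a KO ChIP peak. They fell at 7 of the 9 genes, Chd1, Chd2, Chd3, Chd5, Chd6, Chd7 and Chd9, while 30.3% of all protein-coding genes had a reproducible region. Chd4 and Chd8 had none. At least 2 regions were found at Chd3, Chd7 and Chd9 (3 of 9, against 8.45% of all genes). The count of regions was 24 without OE library 4, and the number of genes was then 8, since Chd4 gained regions. The share of all genes was not computed in that setting.

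Long genes with wide gaps around them collect more regions, so each member was set beside genes of like territory, meaning the stretch of genome in which any summit would go to that gene (0.8 to 1.25 times the length for the member). Chd7, with a territory of 319 kb, had 5 regions, and 3.93% of 712 such genes had as many. Chd9 (334 kb) had 4, and 7.5% of 640 genes had as many. Chd3 had 2 regions in a territory of 42 kb, a number reached by 4.73% of 3170 genes. For the single regions of Chd1, Chd2, Chd5 and Chd6 the shares were 44.8%, 46.5%, 29.6% and 57.8%. Chd7 and Chd9 were the members with at least 4 regions, which 1.13% of all genes had. In all, the members held 9.99 reproducible regions per Mb of territory, against 4.98 for all genes. Without Chd7 and Chd9 the density was 7.07 per Mb. These shares and densities are descriptions of a single merged set of regions and carry no test.

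Regions are named below by gene and letter in order of position, so Chd7a to Chd7e are the 5 regions of Chd7. Starts and strand came from the RefSeq promoter table for Chd4, Chd5, Chd6, Chd8 and Chd9, while for Chd1, Chd2, Chd3 and Chd7 the ends are called lower and upper by coordinate. The 15 regions lay within 1 kb of a gene end in 3 cases (20%, against 30.9% of all 10375 reproducible regions). Another 6 lay deeper inside genes (40%, against 35.3%), and 6 lay between genes (40%, against 33.8%). The shares of all regions include those farther than 100 kb from any gene, where no CHD region can lie by rule. A region within 1 kb of the start, or of either end where no start was used, was found at Chd1, Chd3 and Chd9 (3 of 9 members, against 16.8% of all genes). Without OE library 1 this held for Chd9 alone, as it did at −log10 q of at least 10, with summits within 100 bp and with equal list lengths. The share of all genes was not computed in these settings. Chd1 and Chd3 counted through a gene end. A start was used for 5 of the 9 members and 17492 of the 21887 genes, so the 16.8% is not a like share.

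**Figure D2:**
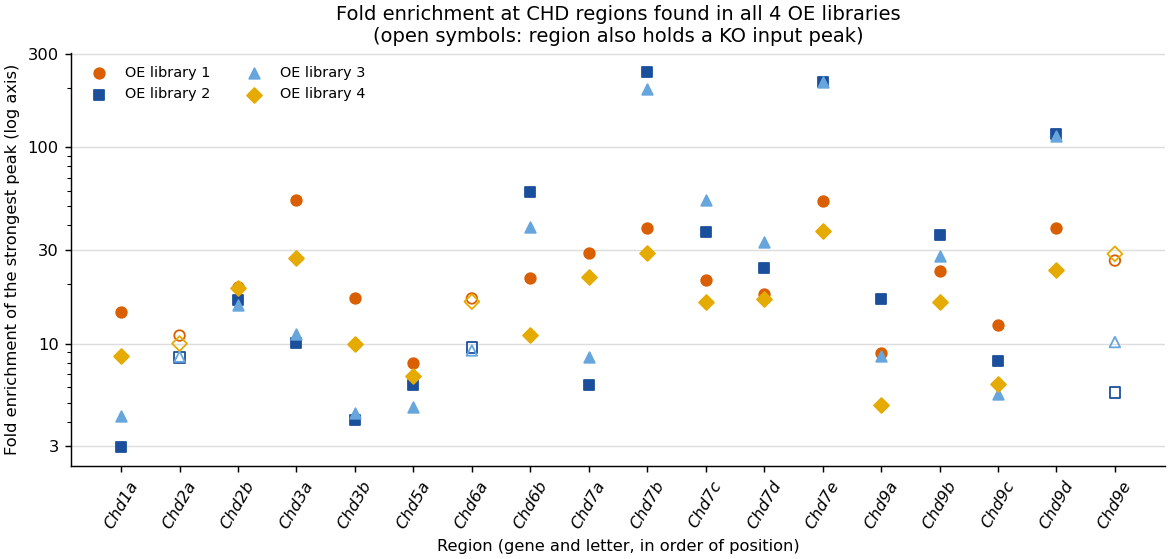
Fold enrichment (log axis) of the strongest peak of each OE library in the 18 CHD regions found in all 4 OE libraries, with open symbols for the 3 regions that also held a KO input peak. In OE libraries 2 and 3 Chd7b, Chd7e and Chd9d stand highest, at 114 to 242, while in OE library 1 Chd3a (53.9) and Chd7e (53.4) and in OE library 4 Chd7e (37.2) lie at the top.

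Chd7, the CHARGE syndrome remodeller (chromosome 4, 8690402 to 8868449), carried the strongest CHD regions. Chd7e (8956001 to 8958751) lay 89543 bp beyond the upper end of the gene. Its folds were 53.4, 214, 215 and 37.2 in OE libraries 1 to 4, at percentiles 96.4, 99.7, 99.8 and 94.9 of the lists. It stood at rank 449 of the 10375 reproducible regions by mean percentile. These folds rest on 106, 1363, 1352 and 81 fragments at the summit. The next gene on that side, Clvs1, began 186753 bp away, so Chd7 was by far the nearer gene, but a position alone does not show which gene a region acts on. Chd7b (8749619 to 8752421) lay inside the gene, 60597 bp from the lower end. Its folds were 38.9, 242, 197 and 29.1, resting on 92, 1540, 1238 and 77 fragments. The counting interval of the fold (95% exact Poisson) was 31.4 to 47.6 in library 1 and 229.6 to 254 in library 2. The gap between the library sets was thus wider than counting error at Chd7b, with libraries 2 and 3 high and 1 and 4 low.

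The other Chd7 regions were weaker. Chd7c (8798457 to 8800066), inside the gene, had folds of 21.0, 36.8, 53.6 and 16.3. Chd7d (8910024 to 8912794), 42977 bp beyond the upper end, had 18.0, 24.3, 33.1 and 16.8. In both regions libraries 2 and 3 stood above 1 and 4. Chd7a (8691339 to 8692191) lay 1420 bp inside the lower end, and its folds of 28.9, 6.11, 8.58 and 21.8 ran the other way. At 3 further Chd7 sites libraries 1, 2 and 3 had a peak and library 4 had none. The strongest of them, 81652 bp beyond the upper end, had folds of 6.10, 35.1 and 45.3. A weaker one, 86247 bp beyond it, had 4.49, 17.2 and 21.0, and the site inside the gene had 9.48, 23.0 and 23.4. At all 3 sites libraries 2 and 3 stood above library 1. Of the Chd7 peaks, 6 of 10, 18 of 37, 12 of 25 and 3 of 6 lay outside the gene body in OE libraries 1 to 4.

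**Figure D3:**
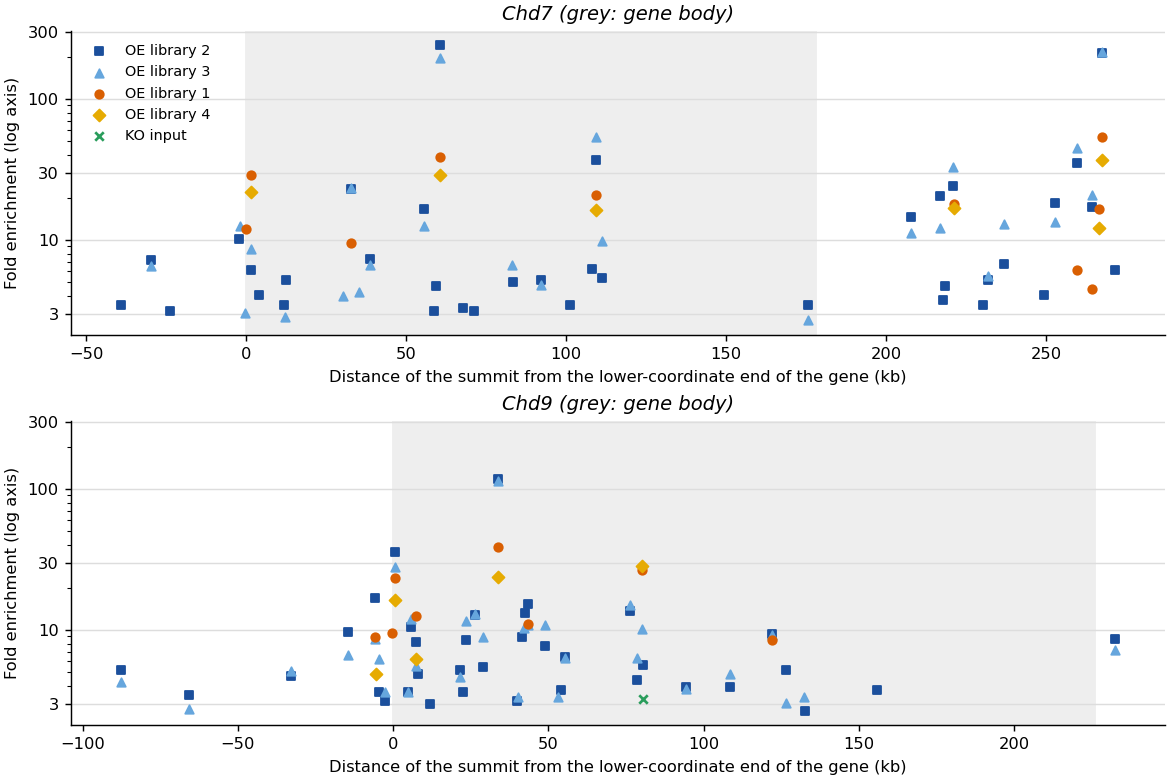
Fold enrichment (log axis) of every peak assigned to Chd7 and Chd9 against the distance of its summit from the lower-coordinate end of the gene in kb, with the gene body in grey. At Chd7 the 2 highest sites lie 60597 bp from that end, inside the body, and 267590 bp from it, beyond the body, and at Chd9 the highest site lies 33893 bp from that end, inside the body.

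Chd9 (chromosome 8, 90828302 to 91054516), of the CHD6 to CHD9 subfamily, carried most of its peaks within the gene. In OE libraries 1 to 4, 6 of 8, 28 of 36, 23 of 31 and 4 of 5 of its peaks lay in the gene body. That body, 226 kb long, also takes up most of the 334 kb territory of Chd9. The strongest region, Chd9d (90861157 to 90863273), lay 33360 bp downstream of the first annotated start, 90828835. Its folds were 38.9, 117, 114 and 23.6, from 77, 746, 717 and 51 fragments. Chd9c, 6929 bp downstream of that start, had 12.5, 8.15, 5.56 and 6.19. Chd9a, 5676 bp outside the lower end of the gene, had 8.98, 16.8, 8.67 and 4.86. Chd9c and Chd9a were among the weaker regions, at ranks 8702 and 8495 of the 10375 by mean percentile. Chd9e (90907597 to 90909437), deeper in the gene, had 26.5, 5.64, 10.2 and 28.6 but overlapped a KO input peak with a fold of 3.22 and was not counted as reproducible.

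The region Chd9b (90827538 to 90830156) lay on that annotated start itself, with its median summit 8 bp downstream. Its folds were 23.5, 35.6, 27.8 and 16.3, and the percentiles were 85.0, 96.95, 95.7 and 77.1. Among the 5 members with an annotated start, Chd9 alone had a reproducible region within 1 kb of it. The 250 bases before this start are shown because every OE library had its summit in or just after them (RefSeq, GRCm38.p6, chr8:90828585-90828834, plus strand), with the E-box in capitals. E-boxes, the letters CANNTG (the same on both strands), are the sites that bHLH factors such as TWIST1 recognise.

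Chd9 promoter: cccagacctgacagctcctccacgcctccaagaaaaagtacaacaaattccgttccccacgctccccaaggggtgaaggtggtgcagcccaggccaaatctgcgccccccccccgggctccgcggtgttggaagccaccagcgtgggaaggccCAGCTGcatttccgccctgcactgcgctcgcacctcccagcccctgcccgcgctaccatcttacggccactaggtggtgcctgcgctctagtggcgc

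The 300-base window, which runs 50 bases past the start, held 2 matches to CANNTG. The match in the run shown is CAGCTG, beginning 97 bases before the start. Its centre lay 70, 106, 101 and 107 bp from the summits of OE libraries 1 to 4. The other begins at base 24 after the start, in gcgagggagaCAGATGgaaccagagt, and its centre lay 50, 14, 19 and 13 bp from those summits. CAGATG was thus the nearer E-box to the summit in each library. Of 32851 promoter windows in the table, 72.3% held CANNTG and 17.2% held CAGATG on either strand. The share with CAGCTG was 16.3%. A match is a run of letters and not a measured binding site.

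Chd6 (chromosome 2, 160946978 to 161109086, minus strand), another member of this subfamily, had its strongest region far upstream. Chd6b (161166078 to 161167440) lay 57707 bp upstream of the start, with folds of 21.5, 58.9, 39.1 and 11.1. At the start itself the region Chd6a, with its summit 253 bp upstream, had folds of 17.0, 9.56, 9.22 and 16.3. The KO input had a peak there too, with a fold of 4.16, so that Chd6a was not counted as reproducible. The input summit, 161109335, fell between those of OE library 2 (161109330) and OE library 3 (161109348). A library made without TWIST1 ChIP thus listed the same site at the Chd6 start. Chd8 (chromosome 14, 52198151 to 52258042, minus strand), the autism-associated member, had no region in all 4 libraries. The deep OE libraries, 2 and 3, had a peak over its start with folds of 10.03 and 10.8, at percentiles 82.4 and 83.7. OE libraries 1 and 4 listed no peak anywhere at Chd8. At their usual background the lowest fold listed was 3.99 in library 1 and 4.09 in library 4, and the cause of this absence was not tested. The 250 bases before both starts are shown beside that of Chd9, from the same table (Chd6, chr2:161109087-161109336, and Chd8, chr14:52257761-52258010, both read 5′ to 3′ on the minus strand).

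Chd6 promoter: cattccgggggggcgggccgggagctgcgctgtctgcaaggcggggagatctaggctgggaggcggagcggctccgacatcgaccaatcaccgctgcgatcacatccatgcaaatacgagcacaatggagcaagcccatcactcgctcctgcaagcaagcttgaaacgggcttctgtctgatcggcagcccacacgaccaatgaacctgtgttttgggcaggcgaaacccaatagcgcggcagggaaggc
Chd8 promoter: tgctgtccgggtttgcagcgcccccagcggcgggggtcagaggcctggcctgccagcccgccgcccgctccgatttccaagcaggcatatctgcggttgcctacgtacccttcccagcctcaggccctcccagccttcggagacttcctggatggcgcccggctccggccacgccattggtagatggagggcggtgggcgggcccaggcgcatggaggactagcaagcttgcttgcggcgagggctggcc

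Neither 300-base window held a match to CANNTG, so none of the letters are in capitals. That says only that these letters are missing from the window.

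**Figure D4:**
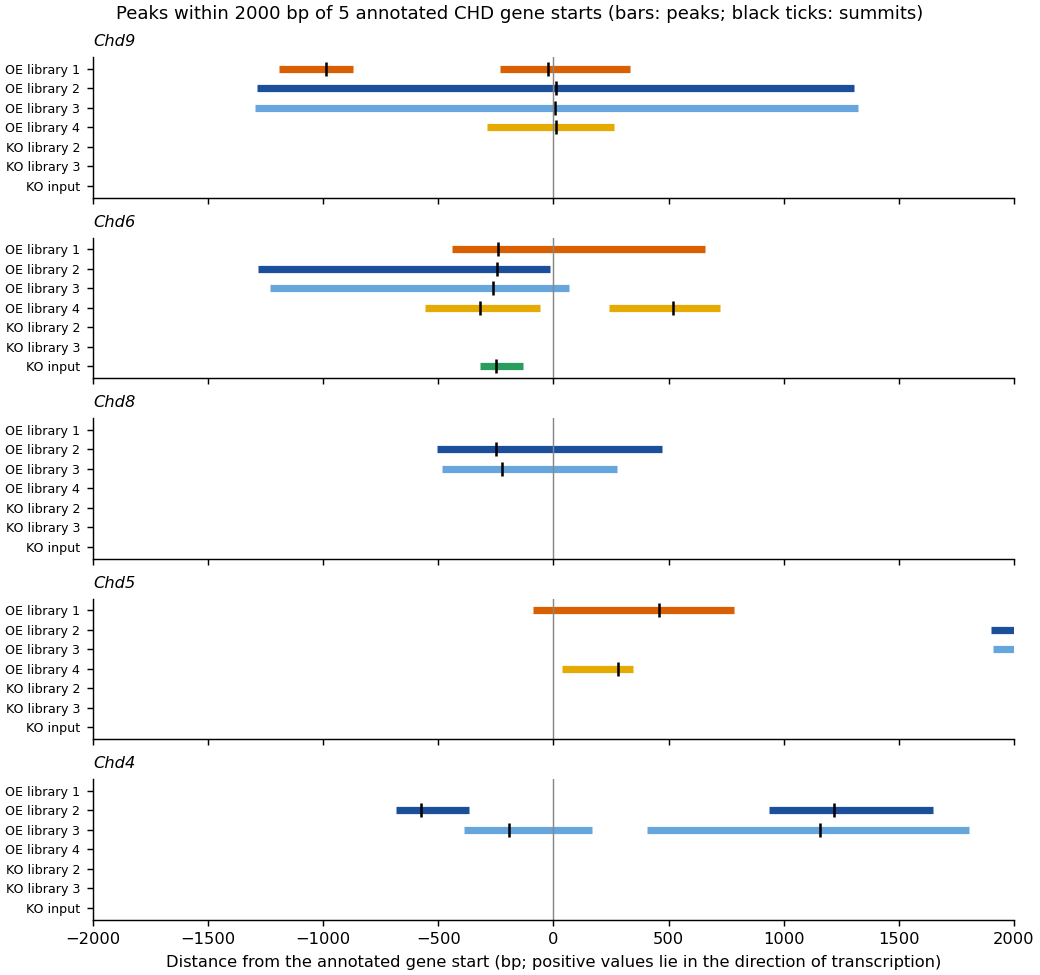
Peaks (bars) and their summits (black ticks) within 2 kb of the annotated starts of Chd9, Chd6, Chd8, Chd5 and Chd4, by library and oriented along transcription. The Chd9 start has a peak in all 4 OE libraries and in no KO library, the Chd6 start has one in the KO input as well, and the Chd8 start has one in OE libraries 2 and 3.

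The NuRD motor genes differed among themselves. Chd3 (chromosome 11, 69343273 to 69369499) had 2 reproducible regions. Chd3a (69339949 to 69341445) lay 2626 bp outside the lower end, and Kcnab3, the next gene, was 7606 bp away. Its folds were 53.9, 10.03, 11.1 and 27.2, and no other reproducible CHD region had a larger excess of OE libraries 1 and 4 over 2 and 3. The percentiles, 96.5, 82.4, 84.4 and 91.0, differed less. Chd3b, inside the gene and 896 bp from the upper end, had 17.0, 4.07, 4.45 and 9.99. Chd5 (chromosome 4, 152338646 to 152390194), the neural member of the trio, had a single weak region 6601 bp downstream of the start, with folds of 7.99, 6.11, 4.77 and 6.81. Near its start a peak was listed in OE library 1 (fold 7.99) and library 4 (5.90) and not in libraries 2 and 3.

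Chd4 (chromosome 6, 125095980 to 125130591), the main NuRD ATPase of embryonic stem cells, had no region in all 4 libraries. It had 2, 7, 8 and 0 peaks, and a site 4757 bp inside the gene was found in libraries 1, 2 and 3. Its folds there were 5.49, 19.3 and 12.4. The percentiles were high in libraries 2 and 3 (93.1 and 86.7) and low in library 1 (15.3). The peak of library 1 rested on 10 fragments. OE library 4, the shortest list, had no Chd4 peak, and the lowest fold it listed at its usual background was 4.09. Without library 4 Chd4 had 2 regions, and the cause of their absence there was not tested.

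CHD1 and CHD2 bind transcribed genes, and their own genes had 1 reproducible region each. Chd2b (chromosome 7, 73617278 to 73619016) lay 76689 bp beyond the upper end of Chd2 and 121872 bp from the next gene, Fam174b. Its folds of 19.5, 16.6, 15.7 and 19.1 had the smallest spread for their mean among the 15 regions (17.7 ± 1.83, SD, n = 4). Chd2a, 16685 bp beyond the same end, had 10.98, 8.46, 8.58 and 9.99 but overlapped a KO input peak with a fold of 3.49. Inside Chd2 a site with folds of 6.49, 8.93 and 10.8 was found in libraries 1, 2 and 3 only. Chd1a (chromosome 17, 15704306 to 15705699) lay at the lower end of Chd1, with folds of 14.5, 2.98, 4.29 and 8.63. Its strongest peaks shared no common base over the 4 libraries, and it was the only one of the 15 regions of which this was true. Of all reproducible regions 92.4% had a common base. Among the 7 genes with a region, Chd1 kept it in the fewest alternative settings (11 of 19).

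Summits fell close together at some regions and far apart at others. The range over the 4 OE libraries was 6 bp at Chd9d, 9 bp at Chd7b and 11 bp at Chd7e. It was 26 bp at Chd6b, and 37 bp at both Chd7c and Chd9b. Chd3a and Chd7d, which outranked Chd6b by mean percentile, had wider ranges of 136 bp and 462 bp. At Chd1a and Chd3b, both near a gene end, it was 821 bp and 752 bp. In these last 4 regions OE libraries 1 and 4 had their summits on one side of the median and libraries 2 and 3 on the other. The same split was seen at tight regions such as Chd9d, Chd6b and Chd7c, so it was not particular to wide ranges. It was absent at Chd2b, Chd7b, Chd9a and Chd9b. Over the 15 CHD regions the median range was 84.0 bp, close to the 87.0 bp over all 10375 reproducible regions, and 4 of the 15 (26.7%, against 21.9% of all) lay within 30 bp.

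**Figure D5:**
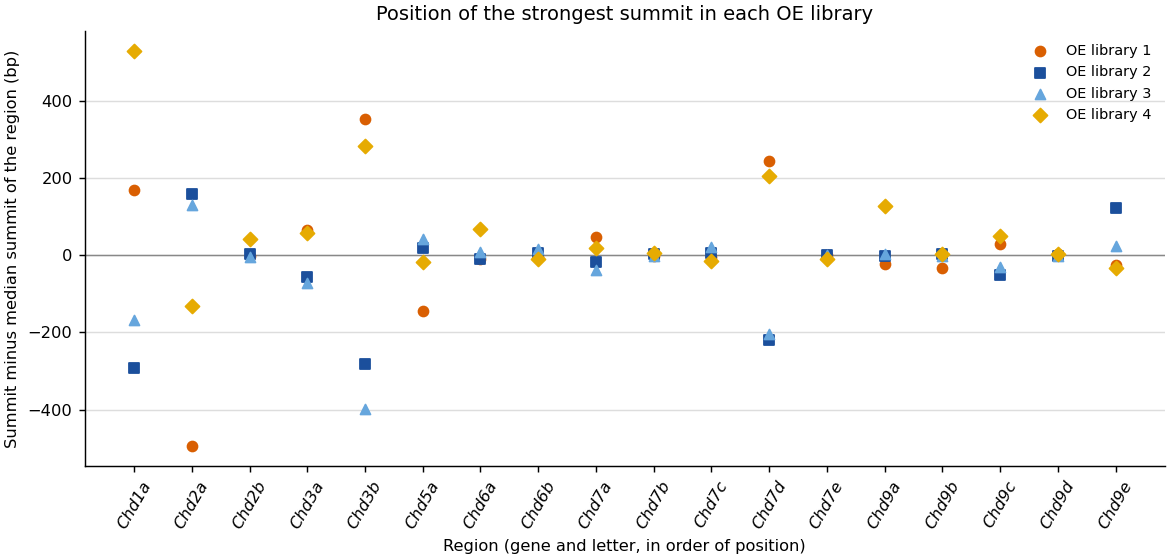
Summit of each OE library's strongest peak minus the median summit of the region in bp, for the 18 CHD regions of all 4 OE libraries. The points coincide at Chd7b, Chd7e and Chd9d, with ranges of 6 to 11 bp, and spread over 821 bp at Chd1a.

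Which libraries were higher varied among the members. Libraries 2 and 3 both stood above 1 and 4 in fold at 7 of the 15 regions, Chd6b, Chd7b, Chd7c, Chd7d, Chd7e, Chd9b and Chd9d. Libraries 1 and 4 both stood above 2 and 3 at 6, Chd1a, Chd2b, Chd3a, Chd3b, Chd5a and Chd7a. Over all reproducible regions the shares were 51.1% and 35.6%. Over all regions, position went with this order. Within 1 kb of a gene end libraries 1 and 4 were higher at 71.6% of 3207 regions, and farther away libraries 2 and 3 were higher at 66.5% of 7168. Like all regions, the few CHD regions kept to this order in part. Of the 3 near gene ends, Chd1a and Chd3b were higher in libraries 1 and 4 (66.7%, against 71.6% of all), and Chd9b in libraries 2 and 3. Of the 12 farther away, 6 were higher in libraries 2 and 3 (50%, against 66.5% of all) and 2 were mixed. Chd2b, Chd3a, Chd5a and Chd7a were higher in libraries 1 and 4. The library sets differ in background, which moves a fold. A fold is fragments plus 1 over background plus 1, and the added 1 lowers it more where background is low. At Chd9b 46, 226, 174 and 35 fragments stood over backgrounds of 1.00, 5.38, 5.29 and 1.20 in OE libraries 1 to 4. The orders thus hold for the fold as listed, and the part of background in them was not tested.

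Genes for proteins that work with the CHD remodellers were counted in the same way, against the same 30.3% of all genes. Of 12 NuRD partner genes 6 had a reproducible region (50%). The DNA-binding bridge gene Mbd3 led them, with folds of 81.9, 17.7, 18.4 and 44.0 (40.5 ± 30.2, SD, n = 4). The scaffold gene Gatad2a had 22.7, 44.7, 55.0 and 16.3, and its paralog Gatad2b 33.4, 5.49, 7.47 and 19.1. The deacetylase genes Hdac1 and Hdac2 had none. Of 8 genes for other partners of CHD4, CHD7 and CHD8, 6 had a region (75%). The insulator protein gene Ctcf had folds of 53.4, 11.4, 12.2 and 33.1, the heterochromatin protein gene Cbx1 had 28.4, 49.2, 65.0 and 15.4, and Adnp had 18.0, 37.3, 39.9 and 12.3. Rbbp5 and Ash2l had none. Among 22 other SNF2-family ATPase genes 8 had a region (36.4%). Srcap, which exchanges histone H2A.Z, had folds of 158, 12.1, 15.9 and 90.4. Ercc6l2 had 24.0, 45.8, 59.1 and 19.1, in a region 91172 bp away, and the BAF motor gene Smarca2 had 19.96, 136, 84.5 and 15.9. The ISWI ATPase genes Smarca1 and Smarca5 had none. The lists are small and were not tested, and 36.4% is near the share of all genes.

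The strongest peak of each gene in each OE library gave a profile of 4 percentiles, compared among 7673 genes with a peak in all 4 OE libraries. That peak could be a different site in each library, and sites with a KO input peak were kept. For Chd9 and Chd6 the value of OE library 4 came from Chd9e and Chd6a. At Chd1 the strongest peak lay 37 bp from the gene in OE library 1 and 69262 bp from it in OE library 2. The gene most like Chd7 was Atp8b4, 0.168 percentile points away, and 528 genes lay within 5 points. Adamts13 was closest to Chd9 (0.266 points, 399 genes within 5) and Mapkap1 to Chd6 (1.23 points, 146 genes). Many genes with strong peaks thus lay near the profiles of Chd7, Chd9 and Chd6. Percentiles have an upper limit, and profiles close to it have less room to differ. The counts of near genes therefore do not measure likeness of binding. Resf1 was closest to Chd2, Scamp5 to Chd3, Mroh6 to Chd5 and Mdga1 to Chd1, at 2.33, 2.67, 2.96 and 4.37 points. Within 5 points Chd1 had 1 such gene and Chd5 had 4.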

How the data were processed

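TWIST1 ChIP-seq peak lists of 7 libraries were analysed, 1 list per library, so peaks were not called on pooled samples. The submitters' processing notes name MACS2, BWA, Trimmomatic and Picard, and as builds GRCm38.p5 and mm10. Their versions, the settings and the caller's control, not given in the sources used here, can change which peaks are listed and their fold. The deposited fold enrichment is a linear ratio over local background made by the authors' caller. The deposited −log10 p-value and −log10 q-value came from the same step, and the deposited score is 10 times the −log10 q-value cut to a whole number and was used only to check the layout.

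Peaks on 21 main chromosomes were analysed in Python 3.11.15 (scipy 1.17.1, numpy 2.4.6, matplotlib 3.10.9). Summits were assigned to RefSeq protein-coding genes, to each gene where bodies overlapped. OE peaks sharing 1 bp were merged, a region's summit being the median of the strongest summits. Reproducible regions had all 4 OE libraries and no KO peak. Pileups were recovered from up to about 4000 peaks per library, and for 100% of CHD peaks. Intervals cover counting error only. Territories used a grid of 1000 bp. The promoter table matched 5 of the 9 genes. OE and KO counts were compared by exact permutation with a pseudocount of 1. The region, assignment and pileup steps were tested on simulated data. Named genes are all members, the 3 leading and first 2 absent genes of each partner list, neighbours of regions, and the nearest profile of each member. Members and lists were chosen with earlier results of these data known. Alternatives covered the q-value limit, shared overlap, libraries required, list length, KO removal, distance and each replicate.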

Additional observations from a re-analysis of the deposited data

Results flagged for a closer look

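Each of 65 sets of 4 OE values at the CHD genes (peak counts, folds, percentiles and summit positions) was searched for a library far from the other 3, by Dixon's 95% limit for the gap over the range. Chance alone flags about 1 in 20 such sets, and 4 were found, all for summit positions. The summit of OE library 4 lay 42 bp above the region's median at Chd2b, 127 bp above it at Chd9a and 10 bp below it (-10) at Chd7e, where the other 3 libraries agreed within 1 bp. At Chd9b, the region on the Chd9 start, the summit of OE library 1 lay 33 bp below the median (-33).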

How the results depend on the processing

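The KO ChIP libraries have no CHD peak, so no alternative could turn the direction of OE above KO peak numbers, and its 13 alternatives show only the size. The difference of mean log2(number + 1) was 5.05 for gene bodies only, 5.46 to 6.37 without each OE or KO replicate in turn, and 7.06 with the deep OE libraries 2 and 3 alone, an alternative chosen after seeing the data. The KO and OE libraries share the numbers 2 and 3, and with the replicate block the difference was 7.06 (exact sign-flip p = 0.500, the smallest that 2 pairs allow); the labels do not say that the numbers pair the libraries. No alternative reached 0.05, since none could.

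The 7 CHD genes with a region became 4 with summits within 100 bp, 4 with equal list lengths and 4 with gene bodies only, and 6 to 8 without each replicate in turn. The 15 regions became 9, 8 and 8 under these alternatives, 24 with at least 3 of 4 libraries, 105 with at least 2 of 4, 104 with the deep OE libraries alone, and 14 to 24 without each replicate, the highest without OE library 4. The 3 genes with a region at the start or an end were Chd1, Chd3 and Chd9, against 16.8% of all genes. A start was used for a larger share of all genes than of the members. The 3 genes became 1, Chd9, at −log10 q of at least 10, with summits within 100 bp and with equal list lengths. They were 7 with at least 2 of 4 libraries, 5 with the deep OE libraries alone and 1 to 3 without each replicate, the lowest, Chd9, without OE library 1. Chd7 and Chd9 had at least 1 region in all 19 alternatives for the regions, Chd3 in 17, Chd2, Chd5 and Chd6 in 16, Chd1 in 11, Chd4 in 4 and Chd8 in 2. The share of all genes was not computed under the alternatives, so the 16.8% holds for the main setting only. Stricter limits leave fewer peaks and fewer required libraries leave more regions by construction, and other causes were not tested. A region of all 4 OE libraries needs a peak in the short lists of OE libraries 1 and 4, with 22308 and 14078 peaks. Why these lists are short was not tested.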
